A study of Bos taurus with 6 samples.

Results

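The miR-28, miR-708 and miR-151 family was examined in granulosa cells, the steroid-producing somatic cells that line the bovine ovarian follicle. The study removed the oocyte with its surrounding cumulus cells before these granulosa cells were collected. Its members were taken by name from miRNA count tables: every mature name of miR-28, miR-708 or miR-151, with any arm suffix. This gave 4 of the 755 mature names listed, namely bta-miR-708, bta-miR-28, bta-miR-151-5p and bta-miR-151-3p, and all 4 were among the 353 miRNAs detected, that is with 1 read or more in 2 or more of the 3 libraries of a follicle type. The family was chosen from the measured difference between follicle types, in which miR-708 and miR-28 stood apart and the miR-151 arms did not. That difference is therefore given as a description, without a test, for all 4 members.

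Small RNA was sequenced in 3 libraries of granulosa cells from preovulatory dominant follicles (PDF) and 3 libraries from anovulatory subordinate follicles (SF), all of day 19 of the estrous cycle. All follicles came from Simmental heifers whose cycles had been synchronised with cloprostenol, a prostaglandin analogue, and buserelin, an analogue of gonadotropin-releasing hormone, so both groups shared that treatment. Follicles were sorted by their outer diameter and granulosa RNA was pooled into triplicates. Both follicle types came from the same heifers, so the groups were not independent sets of animals. The study obtained far fewer dominant than subordinate follicles, so the PDF pools drew on fewer follicles than the SF pools. The spread between libraries is the spread between such pools, and the SD of PDF and that of SF need not be comparable. Which heifers and follicles entered which pool is not stated. The granulosa cells had been checked by the study for the theca marker CYP17A1 beside the granulosa marker FSHR. In these bulk libraries, fewer cells of a type and less of a miRNA per cell cannot be told apart.

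A miRNA is cut from one arm of a hairpin precursor, is loaded into an Argonaute protein and guides it to messenger RNAs that pair mainly with its seed, bases 2 to 8 counted from the 5′ end. MiR-28-5p and miR-708-5p carry the same seed and so have largely shared predicted targets. MiR-151-5p has a related 5′ end that is not identical to theirs, and the 3p arm of miR-151 has an unrelated seed. MiR-28 is known for its loss in B-cell lymphoma. MiR-708 is known as a miRNA that is induced together with its host gene during endoplasmic reticulum stress. MiR-151 is known to promote cell migration together with its host gene PTK2, which encodes focal adhesion kinase. The count tables name the arm for miR-151 but give bta-miR-28 and bta-miR-708 without one.

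The 4 mature miRNAs come from 3 precursors, and each has a single precursor row in the tables, so no read of theirs was counted on a second precursor. In the RefSeq annotation of the bovine assembly ARS-UCD2.0 the gene of bta-mir-708 lies inside TENM4, which encodes a teneurin transmembrane protein. The gene of bta-mir-28 lies inside LPP, which encodes a LIM-domain protein of focal adhesions, and that of bta-mir-151 lies inside PTK2. None of the 3 precursors has another annotated miRNA gene within 10 kb. MiR-708, miR-28 and the miR-151 arms thus sit in 3 separate host genes, and none belongs to an annotated cluster. Expression of the host genes was not measured here.

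The libraries held between 190385 and 311842 reads on known miRNAs in PDF and between 306932 and 364125 in SF, with 1 value per mature name. At this depth 3 reads, the limit that a count of 0 allows, are worth between 8.86 and 13.9 CPM (reads scaled to a common library size with TMM factors). Every member was above that limit in every library. PDF replicates 1 and 2 carried more blood cell miRNA than the other 4 libraries, and SF replicate 3 differed from the other SF libraries in the balance of hairpin arms, with the values given beside the results they touch.

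Bta-miR-708 showed the widest gap of the family between follicle types. It had 115, 156 and 137 reads in PDF replicates 1, 2 and 3, against 19, 7 and 15 reads in SF replicates 1, 2 and 3. As CPM these were 406, 724 and 436 in PDF and 56.1, 22.6 and 52.9 in SF. All 3 PDF libraries lay far above all 3 SF libraries, and the lowest PDF value was 7.23 times the highest SF value. The mean level was 522 ± 175 CPM in PDF and 43.9 ± 18.5 CPM in SF (SD, n = 3 each), and the fitted log2 fold change was 3.55 with a standard error of 0.40, which is 11.7-fold. The SF level rests on few reads, and the 7 reads of SF replicate 2 have an exact Poisson 95% interval of 2.81 to 14.4 reads, which covers counting error only.

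Bta-miR-28, which shares its seed with miR-708, differed in the same direction and by less. It had 78, 90 and 114 reads in the 3 PDF libraries and 57, 44 and 33 reads in the 3 SF libraries. As CPM these were 275, 417 and 363 in PDF and 168, 142 and 116 in SF. The groups did not overlap here either, but they were closer, and the lowest PDF value was 1.64 times the highest SF value. The mean level was 352 ± 71.8 CPM in PDF and 142 ± 25.9 CPM in SF, and the fitted log2 fold change was 1.30 with a standard error of 0.26, which is 2.46-fold.

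Bta-miR-151-5p, from the 5′ arm of its hairpin, was an abundant miRNA in both follicle types. It had 1395, 1242 and 1758 reads in PDF and 2076, 1638 and 2200 reads in SF. As CPM these were 4922, 5761 and 5598 in PDF and 6131, 5298 and 7764 in SF. The groups overlapped, since SF replicate 2 lay below PDF replicates 2 and 3. The mean level was 5427 ± 445 CPM in PDF and 6397 ± 1254 CPM in SF, with a log2 fold change of -0.24 and a standard error of 0.19.

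Bta-miR-151-3p, from the opposite arm of the same hairpin, was about as abundant. It had 1354, 1200 and 1817 reads in PDF and 2671, 2261 and 1628 reads in SF. As CPM these were 4778, 5566 and 5786 in PDF and 7888, 7313 and 5745 in SF. The groups overlapped through SF replicate 3, which lay just below PDF replicate 3, while SF replicates 1 and 2 lay above every PDF library. The mean level was 5377 ± 530 CPM in PDF and 6982 ± 1109 CPM in SF, with a log2 fold change of -0.38 and a standard error of 0.18.

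**Figure D1:**
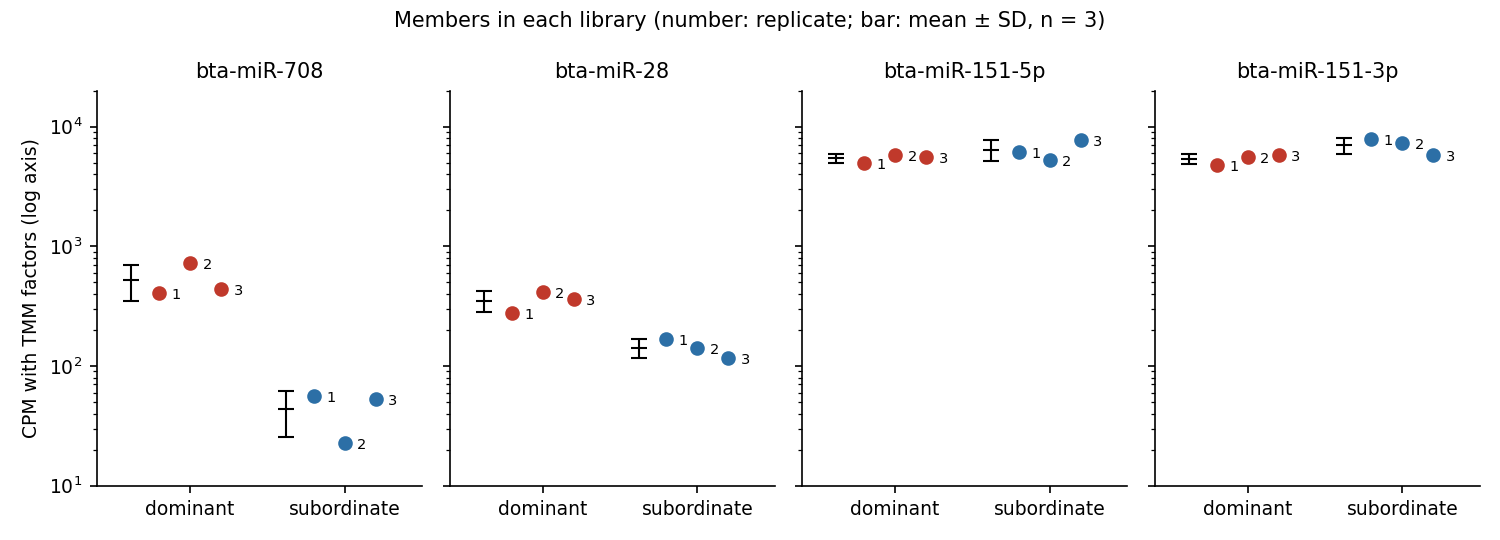
CPM with TMM factors (log axis) of the 4 members in each library, by follicle type; points are libraries labelled by replicate number and bars give the mean ± SD of 3. For miR-708 and miR-28 every dominant library lies above every subordinate one, whereas both miR-151 arms overlap and lie between 4778 and 7888 CPM in all 6 libraries.

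By the study's thresholds a miRNA was called where its log2 fold change was 1 or more in size, its p 0.05 or less and its false discovery rate 0.1 or less. Over all 353 miRNAs, 76 met them by edgeR's quasi-likelihood test, which is 21.5%, and 42 of these were higher in PDF, which is 11.9%. The groups did not overlap in CPM for 130 of the 353 miRNAs, which is 36.8%. Among the members, miR-708 and miR-28 met the thresholds, both higher in PDF, and the same 2 had no overlap. Since the members were chosen on this contrast, nothing is read from these counts.

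Placed by log2 fold change among the 353 miRNAs, from the most raised in PDF to the most lowered, miR-708 was number 13 and miR-28 number 53, while miR-151-5p was number 181 and miR-151-3p number 206. The median log2 fold change of all 353 was -0.20 and that of the 4 members was 0.53. Relative to the median of all miRNAs the members stood at 3.75 for miR-708, 1.50 for miR-28, -0.04 for miR-151-5p and -0.18 for miR-151-3p. The miR-151 arms thus lay close to the middle of all miRNAs measured. Scaling by total count alone moved that median to -0.01, and the log2 fold changes were then 3.75, 1.50, -0.03 and -0.18 in the same order.

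**Figure D2:**
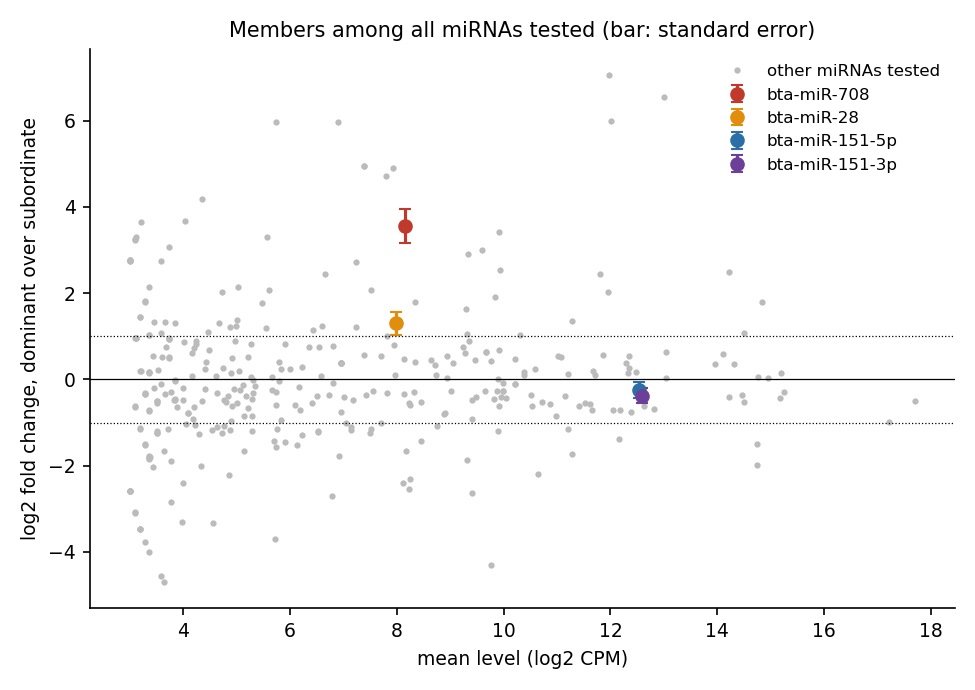
Log2 fold change of dominant over subordinate against mean level (log2 CPM) for all 353 miRNAs tested (grey points), with the 4 members in colour; bars are standard errors and dotted lines mark a log2 fold change of 1 in each direction. MiR-708 (3.55) and miR-28 (1.30) have nearly the same mean level and lie apart in fold change, and the miR-151 arms (-0.24 and -0.38) lie together at a higher level, near 0.

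The order of the members by level differed between follicle types. In PDF the miR-151 arms came first and could not be separated by their spread (5427 ± 445 and 5377 ± 530 CPM), followed by miR-708 (522 ± 175 CPM) and miR-28 (352 ± 71.8 CPM). The ranges of these last 2 also overlapped in PDF, because miR-708 was lowest at 406 CPM and miR-28 reached 417 CPM. In SF the arms again came first and overlapped (6982 ± 1109 and 6397 ± 1254 CPM), followed by miR-28 (142 ± 25.9 CPM) and then miR-708 (43.9 ± 18.5 CPM), with no overlap between the latter. Counted by reads among the 353 miRNAs, miR-708 held ranks 89 to 104 in PDF and 169 to 204 in SF, and miR-28 ranks 102 to 119 and 130 to 138. The miR-151 arms stayed among the 33 most abundant miRNAs in every library. As mature miRNAs are of nearly one length, these levels were compared without a length correction, although ligation and amplification can favour one miRNA over another.

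A ratio of members within a library does not depend on how libraries are scaled against each other. For every 100 reads of miR-28 there were 147, 173 and 120 reads of miR-708 in the 3 PDF libraries and 33.3, 15.9 and 45.5 in the 3 SF libraries. MiR-708 was thus the more abundant of the pair in each PDF library and the less abundant in each SF library. The log2 ratio of miR-708 to miR-28 reads, with 1 read added to each, was 0.53 ± 0.26 in PDF and -1.71 ± 0.72 in SF (SD, n = 3 each), a difference of 2.24 or 4.72-fold. The widest departure was SF replicate 2, at -2.49, which is the library with 7 miR-708 reads.

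Set against miR-151-5p, both miRNAs shifted in the same way. For every 100 reads of miR-151-5p there were 8.24, 12.6 and 7.79 reads of miR-708 in PDF and 0.915, 0.427 and 0.682 in SF, a difference of 3.74 on the log2 scale or 13.4-fold. MiR-28 had 5.59, 7.25 and 6.48 reads per 100 of miR-151-5p in PDF and 2.75, 2.69 and 1.50 in SF, a difference of 1.51 on the log2 scale or 2.84-fold. No SF library reached a PDF library in either ratio.

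**Figure D3:**
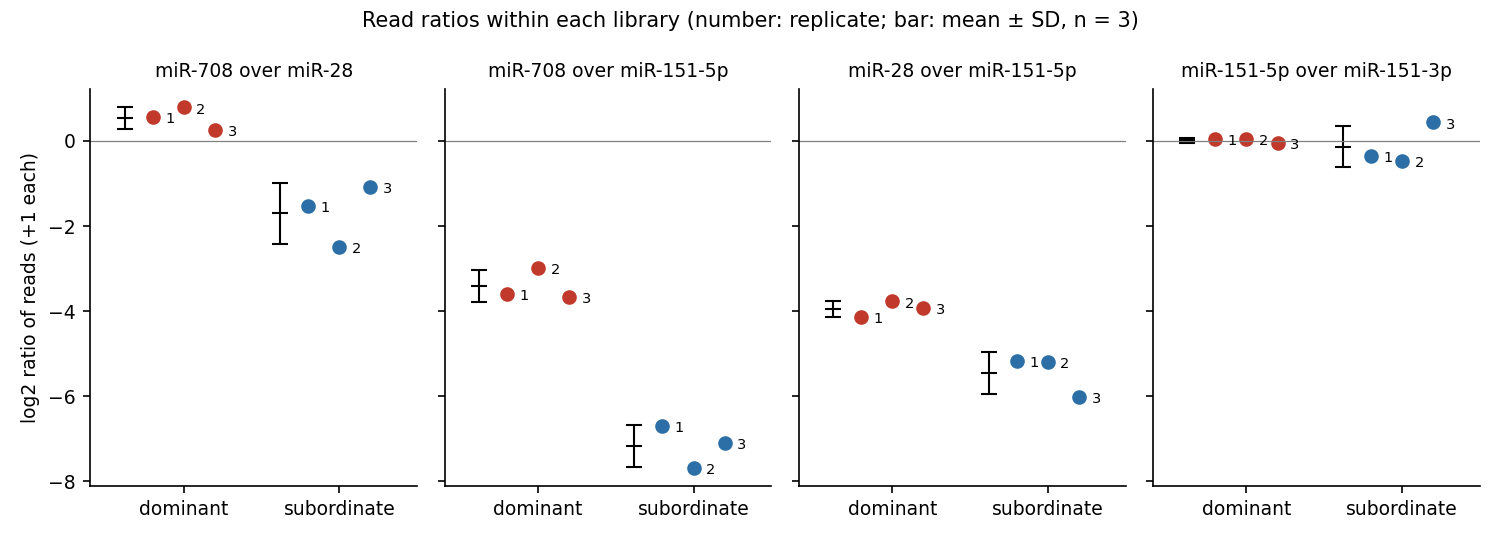
Log2 ratio of reads (1 added to each) between members within each library, by follicle type; points are libraries labelled by replicate number, bars give the mean ± SD of 3, and the grey line marks equal reads. The ratio of miR-708 to miR-28 lies above 0 in all 3 dominant libraries and below 0 in all 3 subordinate ones, and the arm ratio of miR-151 lies near 0 with subordinate replicate 3 on the other side from replicates 1 and 2.

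The levels of miR-708 and miR-28, which share a seed on the reading that both names hold the 5p arm, were also summed. Other miRNAs with that seed were not searched for, so the sum is that of this pair only. Their summed level was 681, 1141 and 799 CPM in PDF and 224, 165 and 169 CPM in SF. The PDF sums lay well above the SF sums, with means of 874 ± 239 and 186 ± 33.1 CPM, a log2 fold change of 2.21 or 4.63-fold. The make-up of the sum differed as well. MiR-708 supplied 59.6% (Wilson 95% interval 52.5 to 66.3), 63.4% (57.2 to 69.2) and 54.6% (48.4 to 60.6) of these reads in PDF, against 25.0% (16.6 to 35.8), 13.7% (6.81 to 25.7) and 31.3% (19.9 to 45.3) in SF. The intervals, which cover counting error only, did not meet between the groups. In CPM, miR-708 stood 478 and miR-28 stood 210 higher in PDF, so that miR-708 carried the larger part of the 688 CPM between the sums.

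With miR-151-5p counted in, the picture was set by that arm. The sum of miR-708, miR-28 and miR-151-5p was 6301 ± 655 CPM in PDF and 6584 ± 1251 CPM in SF, with overlapping groups and a log2 fold change of -0.05. Within this sum, miR-708 and miR-28 together made up 12.2, 16.5 and 12.5% in PDF and 3.53, 3.02 and 2.14% in SF. The family as a whole, with both miR-151 arms, came to 10381, 12468 and 12183 CPM in PDF and 14243, 12776 and 13678 CPM in SF. On this scale the PDF sums lay below the SF sums without overlap, with means of 11677 ± 1132 and 13566 ± 740 CPM and a log2 fold change of -0.22.

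That difference of the whole family depended on the scaling. As a share of all miRNA reads the family made up 1.13, 1.41 and 1.23% in PDF and 1.46, 1.08 and 1.26% in SF, and the groups overlapped, with a log2 fold change of -0.0095. MiR-708 and miR-28 made up 6.56, 9.15 and 6.56% of the family's reads in PDF and 1.58, 1.29 and 1.24% in SF. The 688 CPM more of these members in PDF stood beside a mean of 2576 CPM less in the summed miR-151 arms. In CPM the summed arms did not overlap, at 9700 to 11384 in PDF and 12611 to 14018 in SF. Their log2 fold change was -0.31. As a share of reads the summed arms overlapped between the groups. On either scale the whole family differed by less than the sum of miR-708 and miR-28 did (2.21 on the log2 scale).

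**Figure D4:**
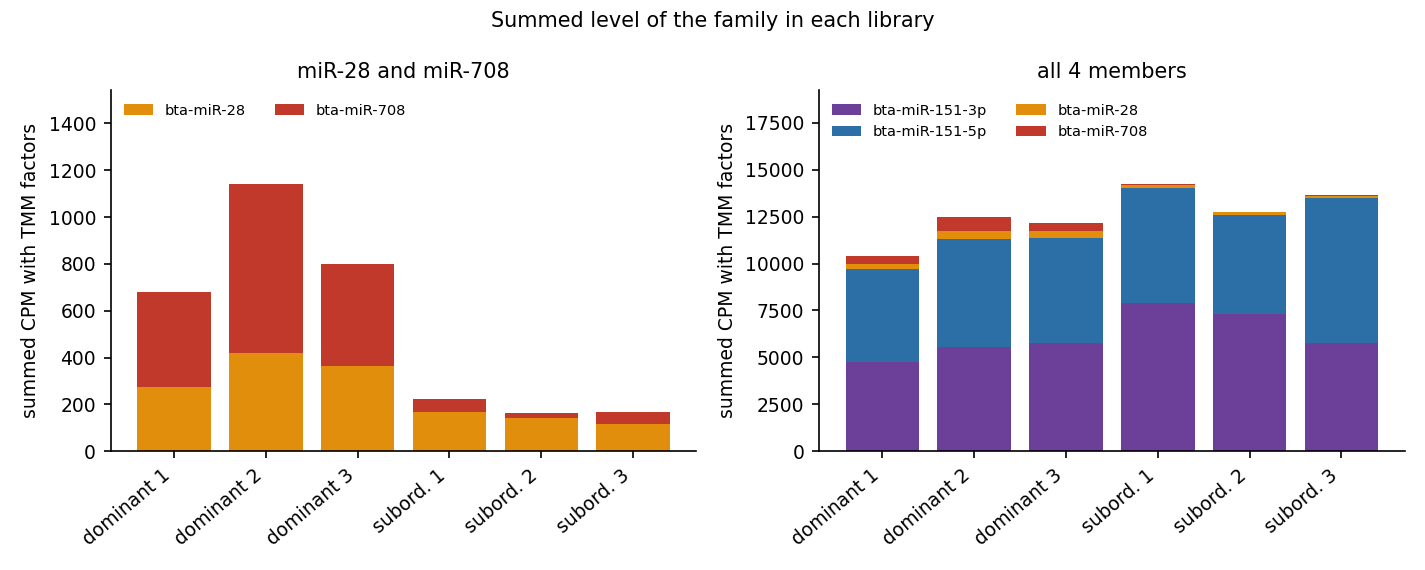
Summed CPM with TMM factors in each library, stacked by member, for miR-28 with miR-708 (left) and for all 4 members (right, on a larger axis). The left sums lie between 681 and 1141 CPM in dominant and between 165 and 224 CPM in subordinate libraries, whereas on the right the miR-151 arms fill most of each bar, from 10381 to 14243 CPM.

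The arms of miR-151 gave nearly equal numbers of reads. The 5p arm supplied 50.7, 50.9 and 49.2% of the miR-151 reads in PDF and 43.7, 42.0 and 57.5% in SF. The PDF libraries lay within 2 percentage points of each other, while SF replicate 3 leaned to the 5p arm and SF replicates 1 and 2 to the 3p arm. These departures in SF exceeded counting error, with Wilson 95% intervals of 42.3 to 45.1, 40.5 to 43.6 and 55.9 to 59.0%. Over all 6 libraries the log2 ratio of 5p to 3p reads was -0.06 ± 0.32 (SD, n = 6), and the group means, 0.01 ± 0.05 in PDF and -0.13 ± 0.49 in SF, differed by less than the spread of the SF libraries.

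Among the hairpins with enough reads on each arm, that of miR-151 was the most evenly split on average over the libraries. Both arms were detected for 26 hairpins, and 8 of these averaged 30 reads or more on each arm. Of these 8, miR-151 had the smallest mean log2 arm ratio by size, 0.06, where the median was 0.77 and the highest was 8.48. In this mean -0.36 and -0.46 in SF replicates 1 and 2 were offset by 0.43 in SF replicate 3. By single library, miR-151 was the most even of the 8 in each PDF library and in no SF library. Its scarcer arm, with a mean of 1718 reads, was also the most abundant scarcer arm of the 26, ahead of the next at 597 reads. The lean of SF replicate 3 was not particular to miR-151. Against the mean of SF replicates 1 and 2 its log2 ratio of 5p to 3p reads was 0.85 higher for miR-151, and for the other 7 hairpins it was between -0.23 and 1.82 higher (median 0.85), lying above both other SF libraries in 6 of them and below both in 1. The minimum of 30 reads is a mean over both follicle types, and some arms had few reads in SF. The highest shift, 1.82 for miR-129, rests on 14.1 CPM of the 5p arm and 0 CPM of the 3p arm in SF replicate 3. In that library the 3p arm of miR-424 had 24.7 CPM and that of let-7a 52.9 CPM.

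The members also differed in how far the libraries of one follicle type varied. For miR-708 the coefficient of variation of CPM was 33.6% in PDF, where counting alone would give 8.57%, and 42.1% in SF, where it would give 27.1%. Of the 49 other miRNAs with a PDF mean between 0.5 and 2 times that of miR-708, 45 had a smaller coefficient of variation. The PDF spread came mainly from PDF replicate 2, at 724 CPM against 406 and 436 CPM. MiR-28 varied by 20.4% in PDF, close to the median of 21.3% for miRNAs of like level, and by 18.2% in SF, where that median was 25.9% and 34 of the 48 others varied more. MiR-151-5p varied by 8.19 and 19.6%, and miR-151-3p by 9.86 and 15.9%, so both arms had the smaller spread in PDF.

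The miRNAs whose pattern over the 6 libraries was most like that of each member were found by the root mean square difference of centred log2 CPM, among 156 miRNAs that averaged 30 reads or more. Nearest to miR-708 were bta-miR-215 at 0.39, bta-miR-22-3p at 0.64 and bta-miR-129 at 0.75, whose log2 fold changes were 3.41, 2.49 and 4.95. Nearest to miR-28 were bta-miR-29a at 0.22, bta-miR-210 at 0.26 and bta-miR-421 at 0.34, with log2 fold changes of 1.03, 0.99 and 1.06. Neither had the other among its nearest, since miR-28 was number 16 for miR-708 and miR-708 was number 120 for miR-28. The distance counts the size of a difference as well as its direction. Bta-miR-129 has the same counts as bta-miR-129-5p in every library and stands for both names.

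The miRNAs nearest in pattern to the miR-151 arms had log2 fold changes between -0.54 and -0.28. They were bta-miR-27b at 0.13, bta-miR-15b and bta-miR-423-5p, both at 0.21, for the 5p arm, and bta-miR-505 at 0.09, bta-miR-192 and bta-miR-106b, both at 0.11, for the 3p arm. In the same order their log2 fold changes were -0.44, -0.42 and -0.54, and -0.28, -0.39 and -0.31, and unlike the arms themselves the 3 miRNAs nearest to the 5p arm did not overlap between the groups. Although cut from one hairpin, the arms were not each other's nearest, with miR-151-3p number 25 for miR-151-5p, at 0.30, and miR-151-5p number 38 for miR-151-3p.

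Markers of other cells moved with follicle type in part. The summed level of 7 blood cell miRNAs, of which 6 were detected, was 14203 and 8901 CPM in PDF replicates 1 and 2, 1306 CPM in PDF replicate 3, and between 1366 and 2026 CPM in SF. Of these 6, 5 had a log2 fold change above 0, and bta-miR-451 and bta-miR-486, erythroid members, met the thresholds as higher in PDF. The sum was mostly bta-miR-486, at 10808, 6512 and 927 CPM in PDF replicates 1, 2 and 3. The others above 0 were bta-miR-144 at 1.33 (standard error 1.18), bta-miR-142-5p at 0.53 (0.47) and bta-miR-150 at 0.08 (0.43). Bta-miR-223 stood at -0.48 (0.78). The sum thus describes erythroid miRNAs more than blood cells in general. PDF replicate 3, whose blood level was like that of SF, had 436 CPM of miR-708 and 363 CPM of miR-28, within the range of the other PDF libraries. With that library as the only one from PDF, an alternative chosen after seeing the data, the log2 fold change was 3.36 for miR-708, 1.41 for miR-28, -0.14 for miR-151-5p and -0.20 for miR-151-3p. This is a single library, assumed to vary like the 3 SF libraries, from which alone the spread was then estimated, and the values are given as a description.

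Endothelial markers were lower in each PDF library than in each SF library, while the sums of the stromal and theca markers overlapped. The 2 arms of miR-126, an endothelial miRNA, summed to between 73.2 and 293 CPM in PDF and between 354 and 540 CPM in SF, and neither met the thresholds. The 5 stromal and theca miRNAs summed to between 17603 and 27823 CPM in PDF and between 21064 and 35751 CPM in SF, with log2 fold changes below 0 for all 5, between -1.20 and -0.26 where the median of all miRNAs was -0.20, and only bta-miR-214 met the thresholds. Bta-miR-202, the gonadal miRNA, was present in every library, at 43510 to 46751 CPM in PDF and 11576 to 15231 CPM in SF. The part of blood, endothelial and stromal cells in the levels of the members was not tested.

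**Figure D5:**
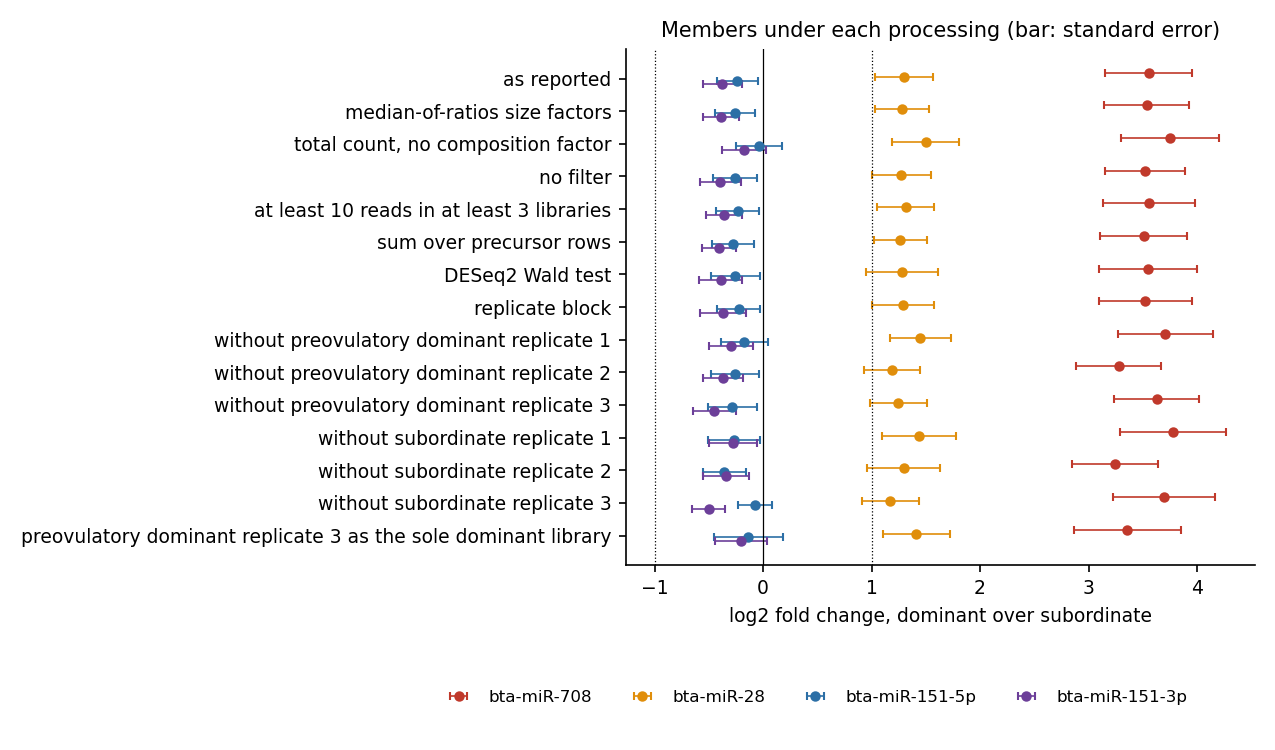
Log2 fold change of dominant over subordinate for the 4 members as reported and under 14 other settings of the processing; points are fitted values, bars are standard errors, and dotted lines mark a log2 fold change of 1 in each direction. MiR-708 stays between 3.24 and 3.78 and miR-28 between 1.17 and 1.50, while both miR-151 arms stay between -0.50 and -0.03.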

How the data were processed

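Granulosa small RNA of 3 PDF and 3 SF pools was analysed, grouped by the sample labels. The deposited values are raw counts: the authors trimmed adapters with cutadapt, mapped reads with Bowtie to the bovine genome (UMD3.1, per the labels) and counted them on known miRNAs by the miRDeep2 workflow, giving 906 rows of mature miRNA and precursor in each library. For each of the 755 mature names the largest precursor row was taken. The tables hold no sequences, and none was used here.

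The 353 detected miRNAs were fitted with edgeR 4.0.16 (R 4.3.3; TMM factors, quasi-likelihood test, Benjamini-Hochberg adjustment) with follicle type as the only term. Where the study used DESeq2 with the same thresholds, DESeq2 1.42.0 was an alternative. Standard errors were obtained as the absolute log2 fold change over the root of the F statistic. Ratios took 1 read as pseudocount, and CPM used a prior count of 1 on the log scale. Other alternatives were the scaling, the filter on low counts, the sum over precursor rows, a pseudocount of 0.5 reads and leaving out each library in turn.

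The members and the marker lists were chosen with earlier results of these data known. Besides members and markers, the 3 miRNAs nearest in pattern to each member are named. A planned list of all miRNAs holding the seed was not made, as it needs sequences not used here. The labels number the replicates but do not say whether libraries of the same number are paired. Deviations from the group means were compared over 194 miRNAs averaging 10 reads or more. They correlated at 0.14, 0.38 and 0.41 for replicates 1, 2 and 3. Libraries of unlike number correlated between -0.42 and 0.19, so that replicate 1 is no closer than some of these. These correlations are not independent and do not settle a pairing. The main fit therefore left the replicate number out, and it was used as a block only in an alternative.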

Additional observations from a re-analysis of the deposited data

How the results depend on the processing

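Of 120 alternative values for 11 results, 118 stayed within the bounds set for them. These include sums over precursor rows for the ratios within a library, which could not differ because each member has a single precursor row. For each member's log2 fold change the bounds were the same direction and side of the threshold. For ratios and sums the bound was the spread between libraries. For the number of miRNAs meeting the thresholds the bound was proportional, so that 54 in place of 76 still counted as kept. The exceptions were the number of miRNAs meeting the thresholds, 39 in place of 76 with PDF replicate 3 as the only dominant library, where fewer samples were fitted, and the log2 fold change of the whole family, -0.0095 in place of -0.22 when scaled by total count. Under the other settings 64 to 75 miRNAs met the thresholds, with 68 by DESeq2. Leaving out each library in turn gave 54 to 75 miRNAs, and log2 fold changes of 3.24 to 3.78 for miR-708, 1.17 to 1.45 for miR-28, -0.36 to -0.07 for miR-151-5p, -0.50 to -0.28 for miR-151-3p, and -0.27 to -0.14 for the whole family. The difference of the log2 ratio of miR-708 to miR-28 stayed between 1.85 and 2.55. The mean log2 arm ratio of miR-151 was between -0.16 and 0.02 and turned to above 0 without SF replicate 1 (0.0029) or SF replicate 2 (0.02), where the SD over the 6 libraries was 0.32. With the replicate number as a block, 71 miRNAs met the thresholds and the members stood at 3.52, 1.29, -0.22 and -0.37 (miR-708, miR-28, miR-151-5p and miR-151-3p), so that the block changed no call among the members. Depth limits miR-708 in SF, where a library held at most 19 reads of it.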
